A study of Homo sapiens with 4 samples.

Results

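The difference between a culture with a stable miR-410 construct and one with its scrambled control, on the 2 arrays titled C42B, was measured gene by gene, by subtracting the log2 value under the title C42B miR-CON from that under C42B miR-410. These are 2 of the 4 Clariom S arrays of the study, which hold 1 array for each cell line (C42B, PC3) and construct. Cells of the miR-410 group carried a vector in which a CMV promoter drove the human precursor of miR-410 together with a GFP reporter, cells of the miR-CON group carried the scrambled counterpart, and all 4 cultures were selected in puromycin and harvested during growth in RPMI. C42B is an androgen-independent subline of LNCaP prostate cancer cells, and PC3 is a prostate cancer line from a bone metastasis. Genes were kept when both values of the pair were near or above the array's median, that is, no more than 0.5 (log2) below the medians of 6.35 on the miR-410 array and 6.39 on the miR-CON array. This held for 10163 of 17687 named genes (57.5%), which are called covered genes below. With 1 array a side there is no spread between cultures, so no difference below has an error or a test, and culture and construct cannot be told apart.

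The labels bear on how the pair is read. On the arrays titled C42B, title, genotype and description name the same construct, whereas the other pair has titles at odds with its genotype and description fields. The sign given for the arrays titled C42B follows all of their labels and is opposite to the one the study gives for several of these genes, which it reports under PC3 cells. Differences of the PC3 pair are given by title, and their sign turns under the other fields. The marker genes went against the cell line in the titles: all 12 measured markers of the LNCaP lineage had a lower mean on the arrays titled C42B than on those titled PC3, and 13 of 14 markers of PC3 cells had a higher one. The LNCaP-lineage markers averaged 6.51 and 6.88 (log2) on the arrays titled C42B miR-410 and C42B miR-CON, against 9.51 and 9.24 on those titled PC3 miR-410 and PC3 miR-CON, and the PC3 markers averaged 10.03 and 9.85, against 5.71 and 5.95. Arrays are therefore called by their titles. Markers of leukocytes, fibroblasts and endothelial cells averaged 4.94, 5.57 and 5.80 on the C42B miR-410 array and 5.08, 5.39 and 5.66 on the C42B miR-CON array, all below the array medians.

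MicroRNAs guide silencing complexes to messenger RNAs that pair with their seed, the bases near the 5′ end, and lower the stability or translation of those messengers. miR-410 is encoded in the imprinted DLK1-DIO3 region of chromosome 14. Epithelial cells hold together through cadherins, tight junctions and desmosomes, whose genes depend on transcription factors such as the grainyhead-like, ETS and forkhead families, and on the splicing regulator ESRP1. In the epithelial-mesenchymal transition these genes are lowered by repressors of the SNAI, ZEB and TWIST families, which bind E-box motifs, and cells take up matrix and cytoskeletal genes. The arms of miR-410 are shown because they define the construct, with the seed (bases 2 to 8) in capitals, from RefSeq (GRCh38.p14); the 3p arm lies at chr14:101065961-101065981 on the plus strand.
hsa-miR-410-3p: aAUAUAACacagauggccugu
hsa-miR-410-5p: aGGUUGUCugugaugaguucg
No named probe set carried the symbol MIR410, so the level of the construct's product was not measured here.

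Most covered genes differed little between the constructs, and the 15 largest differences were all lower with miR-410. Of the 10163 covered genes, 8848 (87.1%) lay within 1.5-fold, with 822 (8.09%) higher and 493 (4.85%) lower by that much. At 2-fold, 121 genes (1.19%) were higher and 144 (1.42%) lower. The counts at 3-fold were 8 (0.0787%) and 52 (0.512%). By sign alone, 6102 (60%) were above 0 and 4061 (40%) below. The median difference was 0.09 and the median absolute difference 0.25 (log2), with the middle 90% of genes between -0.58 and 0.70. By the titles of the PC3 pair, the same genes had a median of 0.00, a median absolute difference of 0.14, and 28 genes (0.276%) higher and 45 (0.443%) lower at 2-fold.

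**Figure D1:**
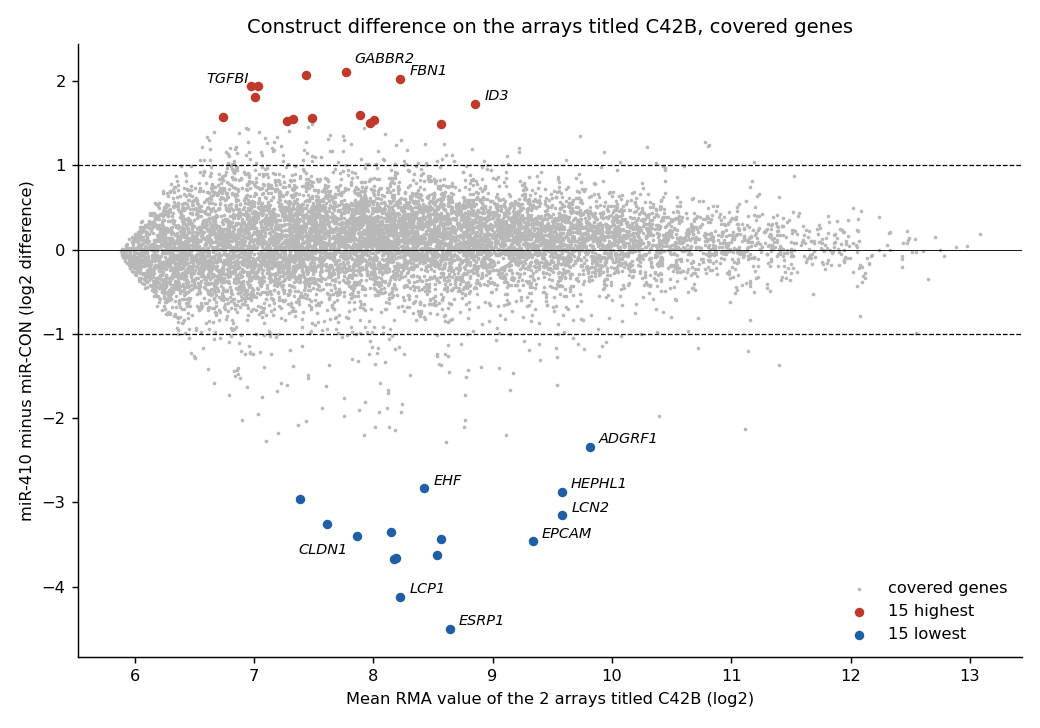
Each grey point is 1 of the 10163 covered genes, with the mean RMA value of the arrays titled C42B on the x axis (log2) and the miR-410 minus miR-CON difference on the y axis (log2). Dashed lines mark 2-fold; red and blue points are the 15 highest genes, which reach 2.11, and the 15 lowest, which reach -4.50.

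The lowest covered genes included several of epithelial adhesion, junctions and splicing. ESRP1, which directs epithelial splicing, had a value of 6.39 on the miR-410 array and 10.89 on the miR-CON array, a 22.6-fold lower level. EPCAM, an epithelial adhesion molecule, had 7.61 and 11.07 on the same arrays, and MPZL2, a homophilic adhesion molecule of epithelia, had 6.36 and 10.03. Thus 3 genes with high values on the miR-CON array stood near the array median or moderately above it on the miR-410 array. The tight junction gene CLDN1 had 6.16 with miR-410 and 9.56 with miR-CON, the gap junction gene GJB2 had 5.98 and 9.24, and ST14, which encodes the membrane protease matriptase, had 5.90 and 8.86. EHF, an epithelial ETS transcription factor, had 7.01 and 9.84.

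The others among the 15 lowest have various roles. LCP1, the plastin of leukocytes and many carcinoma cells, had 6.17 on the miR-410 array and 10.29 on the miR-CON array (log2 difference -4.12). Complement component C3 had 6.34 and 10.01, S100A9, a subunit of calprotectin, 6.71 and 10.34, and the siderophore-binding lipocalin LCN2 8.01 and 11.16. These 4 genes were 8.88-fold to 17.4-fold lower with miR-410. IGFBP5, an insulin-like growth factor binding protein (-3.35), the urea transporter gene SLC14A1 (-3.44), HEPHL1, a hephaestin-like copper oxidase (-2.87), and the adhesion receptor ADGRF1 (-2.34) completed the 15. HEPHL1 and ADGRF1, at 8.14 and 8.64 with miR-410, were well above the median of that array.

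The highest covered genes differed by less and covered matrix, receptor and signalling roles. GABBR2, a subunit of the GABA-B receptor, had 8.82 on the miR-410 array and 6.71 on the miR-CON array, a 4.32-fold higher level. FBN1, the microfibril protein fibrillin-1, had 9.24 and 7.21, and TGFBI, a matrix protein named for its induction by TGF-beta, had a log2 difference of 1.94 and a miR-CON value of 6.06. On the arrays titled PC3 miR-410 and PC3 miR-CON both matrix genes were dim, FBN1 at 4.95 and 4.33 and TGFBI at 3.05 and 3.73. ID3, an inhibitor of bHLH factors that BMP signals induce, had 9.72 with miR-410 and 7.99 with miR-CON, and the ligand gene BMP2 had 8.11 and 6.55. NRP2, a receptor of semaphorins and VEGF-C (1.54), TENM3, a teneurin adhesion protein (1.51), BNC2, a zinc finger factor of mesenchymal cells (1.60), and MDFIC, an inhibitor of myogenic factors (1.52), were also among the 15. The other members were FRMD4B (2.07), the epithelial sodium channel subunit SCNN1B (1.95), the DNA repair gene SHLD2 (1.81), UGT8, which makes galactosylceramide (1.58), the cohesin gene STAG1 (1.56) and DGAT2, which completes triglyceride synthesis (1.49).

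**Figure D2:**
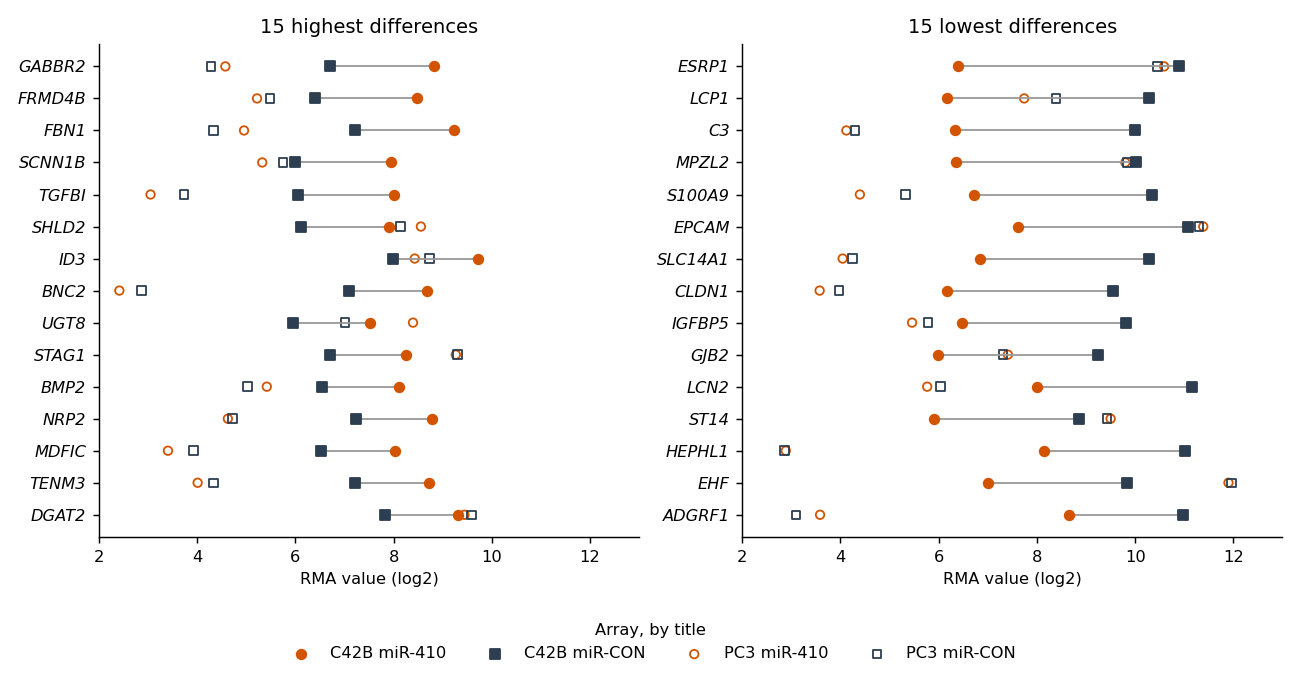
RMA values (log2, x axis) of the 15 highest and 15 lowest covered genes on each array by title; filled symbols are the arrays titled C42B, joined by a line, and open symbols the arrays titled PC3. The 2 arrays titled PC3 lie close together for nearly all of these genes, many of which are dim on both, and UGT8, with a log2 difference of 1.39 there, is apart.

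In the pair titled PC3, 29 of these 30 genes were within 2-fold. So were nearly all covered genes there, with 0.276% higher and 0.443% lower at 2-fold, so the count is not particular to these genes. The 15 lowest had differences of -0.93 (S100A9) to 0.48 (ADGRF1) there. The epithelial genes ESRP1, MPZL2, EPCAM, ST14 and EHF were high on both PC3 arrays, at 10.59 and 10.46 for ESRP1 and 11.90 and 11.97 for EHF, whereas CLDN1, C3, S100A9, IGFBP5, SLC14A1, HEPHL1 and ADGRF1 were below the limit of covered genes on both. Of the 15 highest, GABBR2, FRMD4B, FBN1, SCNN1B, TGFBI, BNC2, BMP2, NRP2, MDFIC and TENM3 were also below that limit on both PC3 arrays. Differences of genes that are dim on both arrays have unknown accuracy. UGT8 was higher in both pairs, with 8.40 on the array titled PC3 miR-410 and 7.01 on the array titled PC3 miR-CON.

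A further 939 genes were above the limit on 1 array of the pair and below it on the other, and 6585 were below it on both. The fold of such genes has a dim side and depends on how RMA treats low signal, so they are not counted among the covered genes. The lowest of the first kind were PDPN, the membrane glycoprotein podoplanin, with 4.81 on the miR-410 array and 9.96 on the miR-CON array, TC2N (4.42 and 9.36), the amino acid transporter gene SLC6A14 (3.28 and 7.81), CEACAM5, which encodes carcinoembryonic antigen (4.22 and 8.61), and SPARC, a matrix glycoprotein (4.06 and 8.21). The highest were PRKD1, which encodes protein kinase D1, with 6.80 on the miR-410 array and 3.86 on the miR-CON array, DPYSL3 (8.30 and 5.37), ZNF385B (6.80 and 4.29), PYGO1, a Wnt cofactor (6.78 and 4.30), and RFX8 (log2 difference 2.42). CDH1, which encodes E-cadherin, had 4.63 with miR-410 and 7.97 with miR-CON. The genes of this kind were at least 2-fold lower in 139 cases and at least 2-fold higher in 68. Just inside the limit stood PDE3A, with 5.86 on the miR-410 array and 6.86 on the miR-CON array, and just outside it WASF3, with 7.80 and 5.89.

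Gene lists were described by the count and median of their covered members, beside the 60% of covered genes above 0 and the 1.19% and 1.42% that were higher and lower at 2-fold. Over all 17687 genes, dim ones included, the 2-fold shares were 1.35% higher and 2.26% lower. The lists were compiled with earlier results of these arrays known.

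Genes of epithelial adhesion and junctions were lower on balance. Of 49 measured members 37 were covered, with a median of -0.31 against 0.09 for all covered genes. Of these, 24 were below 0, and at 2-fold 9 were lower and 1 was higher. Over all 49 measured members, 16 were at least 2-fold lower and the median was -0.44. The lower members included the tight junction genes OCLN, at 6.82 on the miR-410 array and 9.02 on the miR-CON array, and CLDN7 (6.42 and 8.46), the cadherin gene CDH3 (6.33 and 8.40), SPINT1, an inhibitor of matriptase (7.02 and 8.83), and JUP, which encodes plakoglobin (7.22 and 8.25). The members were not uniform. The desmosomal cadherin DSC3 had 8.78 on the miR-410 array and 7.41 on the miR-CON array, DSG2 had 9.25 and 8.42, and the polarity gene PARD6B had 9.18 and 8.35. TJP1, a scaffold of tight junctions, differed by 0.34, and the desmosome gene DSP by 0.11.

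Of 13 covered epithelial transcription and splicing factors, 4 were lower at 2-fold and 0 higher. These were ESRP1, EHF, the pioneer factor FOXA1 (7.88 on the miR-410 array and 9.25 on the miR-CON array) and the RNA-binding protein RBM47 (6.28 and 7.49). The median of -0.15 was smaller in size than the differences of these 4 genes, since SIM2 (0.50), FOXA2 (0.48) and TRPS1 (0.35) lay above 0 and KLF5 was at 10.63 and 10.65. GRHL2, which activates junction genes in epithelia, fell outside the covered genes through its value of 4.67 with miR-410, against 8.36 with miR-CON. Among 23 measured members, 7 were at least 2-fold lower.

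Of 18 measured factors of the transition 10 were covered, and SNAI2, ZEB1, ETS1 and TCF4 were well above the array medians on both arrays. SNAI2 had 11.42 on the miR-410 array and 10.19 on the miR-CON array, the only covered factor that was at least 2-fold different. ZEB1 had 10.50 and 10.11, ETS1 9.59 and 9.02, and TCF4 9.39 and 8.97. SNAI1, which encodes SNAIL, had 6.50 with miR-410 and 6.76 with miR-CON, and SOX9 had 8.74 and 9.17. The factors thus differed by unequal amounts and in both directions, with a list median of 0.29 that was 0.03 over all 18 measured members. On the arrays titled PC3, SNAI2 had 6.79 and 8.35 on the miR-410 and miR-CON arrays by title, a difference of the opposite sign.

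The 37 covered mesenchymal and cytoskeletal genes had a median of 0.13, close to that of all covered genes, with 3 higher and 2 lower at 2-fold. Beside FBN1 and TGFBI, the collagen VI gene COL6A2 had 10.90 on the miR-410 array and 9.68 on the miR-CON array. VIM, the intermediate filament vimentin, had 11.54 and 11.15, and CDH2, which encodes N-cadherin, had 8.67 and 8.64. LCP1, the protease inhibitor SERPINE2 (9.16 and 10.27) and fibrillin-2 FBN2 (8.56 and 9.55) were lower with miR-410. Among 24 covered extracellular proteases and inhibitors, the membrane metalloprotease MMP14 (1.16) and ADAM12 (1.07) were higher, and the collagenase MMP1 (-2.02), the plasminogen activator PLAT (-1.98) and the testican SPOCK1 (-1.40) were lower. Members of both lists therefore stood at each end of the range.

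The canonical Snail-type E-box was counted in RefSeq promoters because several epithelial genes were lower together. The motif was CAGGTG or its complement CACCTG, on both strands, in windows from 250 bases before to 50 after the start. Of 27305 promoters, 20.6% held it, as did 17.7% of the 8475 covered genes with a promoter in the table, 26 of 103 genes at least 2-fold lower (25.2%) and 11 of 104 genes at least 2-fold higher (10.6%). Stretches of 30 bases around the first match, with the motif in capitals, are shown for the junction genes GJB2 and OCLN, for LAD1 and for FOXA1, as examples of lower genes with a match (GRCh38.p14, gene's strand). The counts ran over all genes of each group and were not made for the epithelial lists alone. Lower genes with a match also included LCP1, S100A9, LCN2, SEMA3F and TTN. The lower epithelial genes EPCAM, CLDN1, MPZL2, ST14, EHF and SPINT1 were not among the lower genes for which a match was recorded. A gene without a promoter to search could not have a match. The stretches shown were picked for their match and do not stand for the lower epithelial genes as a group. A match is not a binding site, binding was not measured, and a cause of the shares was not tested.
GJB2, chr13:20192926-20192955, minus strand: cacggcgggagaCAGGTGttgcggccccgc
OCLN, chr5:69492502-69492531, plus strand: ccatccgagtttCAGGTGaattggtcaccg
LAD1, chr1:201399368-201399397, minus strand: gccatgtgatccCACCTGggctggaagggg
FOXA1, chr14:37595354-37595383, minus strand: gcggccgccttgCAGGTGcacctcgggctt
LAD1 encodes ladinin, an anchoring filament protein of basement membranes, and had 7.26 on the miR-410 array and 8.84 on the miR-CON array.

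Among 6 covered entries named for a microRNA, the entry MIR205 stood apart from the rest. It had 6.06 on the miR-410 array and 8.01 on the miR-CON array. On the arrays titled PC3 miR-410 and PC3 miR-CON it had 5.71 and 5.33, both below the limit of covered genes. The other 5 entries had differences of -0.30 (MIR4728) to 0.62 (MIR4651). This gene was singled out after its value was seen. A probe set of this kind reads the transcript of the locus and not the mature microRNA. miR-205 is known for targeting ZEB1 and ZEB2 in epithelial cells, and its arms (chromosome 1, RefSeq GRCh38.p14, seed in capitals) have other seeds than those of miR-410.
hsa-miR-205-5p: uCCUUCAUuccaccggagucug
hsa-miR-205-3p: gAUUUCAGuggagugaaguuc

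Most genes of chromosome segregation and DNA replication were above 0. Of 95 covered genes of chromosome segregation 88 were above 0, with a median of 0.43, and at 2-fold 8 were higher and 0 lower. STAG1, a subunit of the cohesin ring, had 8.26 on the miR-410 array and 6.70 on the miR-CON array, SGO2, which protects centromeric cohesin, had 8.31 and 6.95, and WAPL, which releases cohesin, had 7.35 and 6.21. The kinesin KIF2C, which depolymerizes microtubules at kinetochores, had 9.46 and 8.40. PRC1, which bundles the central spindle, was the lowest member, at 10.06 with miR-410 and 10.80 with miR-CON. Of 59 covered replication genes 52 were above 0 (median 0.23), led by CCNE2, which encodes cyclin E2 (1.05), the checkpoint mediator CLSPN (1.00) and the origin recognition gene ORC1 (0.96), whereas CCNE1, which encodes cyclin E1, differed by -0.69. CDKN1A, which encodes the cell cycle inhibitor p21, had 7.49 on the miR-410 array and 6.37 on the miR-CON array.

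Replication-dependent histone genes were above 0 in 41 of 44 cases, with a median of 0.35. H3C2 had 8.33 on the miR-410 array and 7.16 on the miR-CON array, and H2AC8 had 10.65 and 9.85. In the pair titled PC3 the histone median was -0.17 by title, and those of segregation and replication were -0.02 and 0.04. Centrosome and cilium genes (51 of 60 above 0, median 0.29), chromatin modifiers (64 of 76, median 0.23) and genes of microRNA processing and silencing (24 of 30, median 0.20) also lay mostly above 0. Among these, the intraflagellar transport gene IFT88 (0.99), the chromatin factor JARID2 (0.96) and TUT4, which adds uridines to RNA ends (1.00), were at the upper end.

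Genes of cytosolic ribosomal proteins were below 0 in 46 of 47 cases, but none by 2-fold. The median was -0.20, and the range was -0.49 (RPL18) to 0.14 (RPS26). RPL18 had 11.09 on the miR-410 array and 11.57 on the miR-CON array. Of 70 covered respiratory chain subunits 49 were below 0 (median -0.15), of which NDUFB1, a subunit of complex I, was at least 2-fold lower, at 8.83 with miR-410 and 9.95 with miR-CON. Splicing factors had a median of 0.09, the same as all covered genes at this precision, whereas mitochondrial ribosomal proteins (-0.04) and factors of ribosome biogenesis (-0.08, with 25 of 40 below 0) lay below it. In the pair titled PC3 the medians of cytosolic ribosomal proteins and respiratory chain subunits were 0.02 and 0.04.

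**Figure D3:**
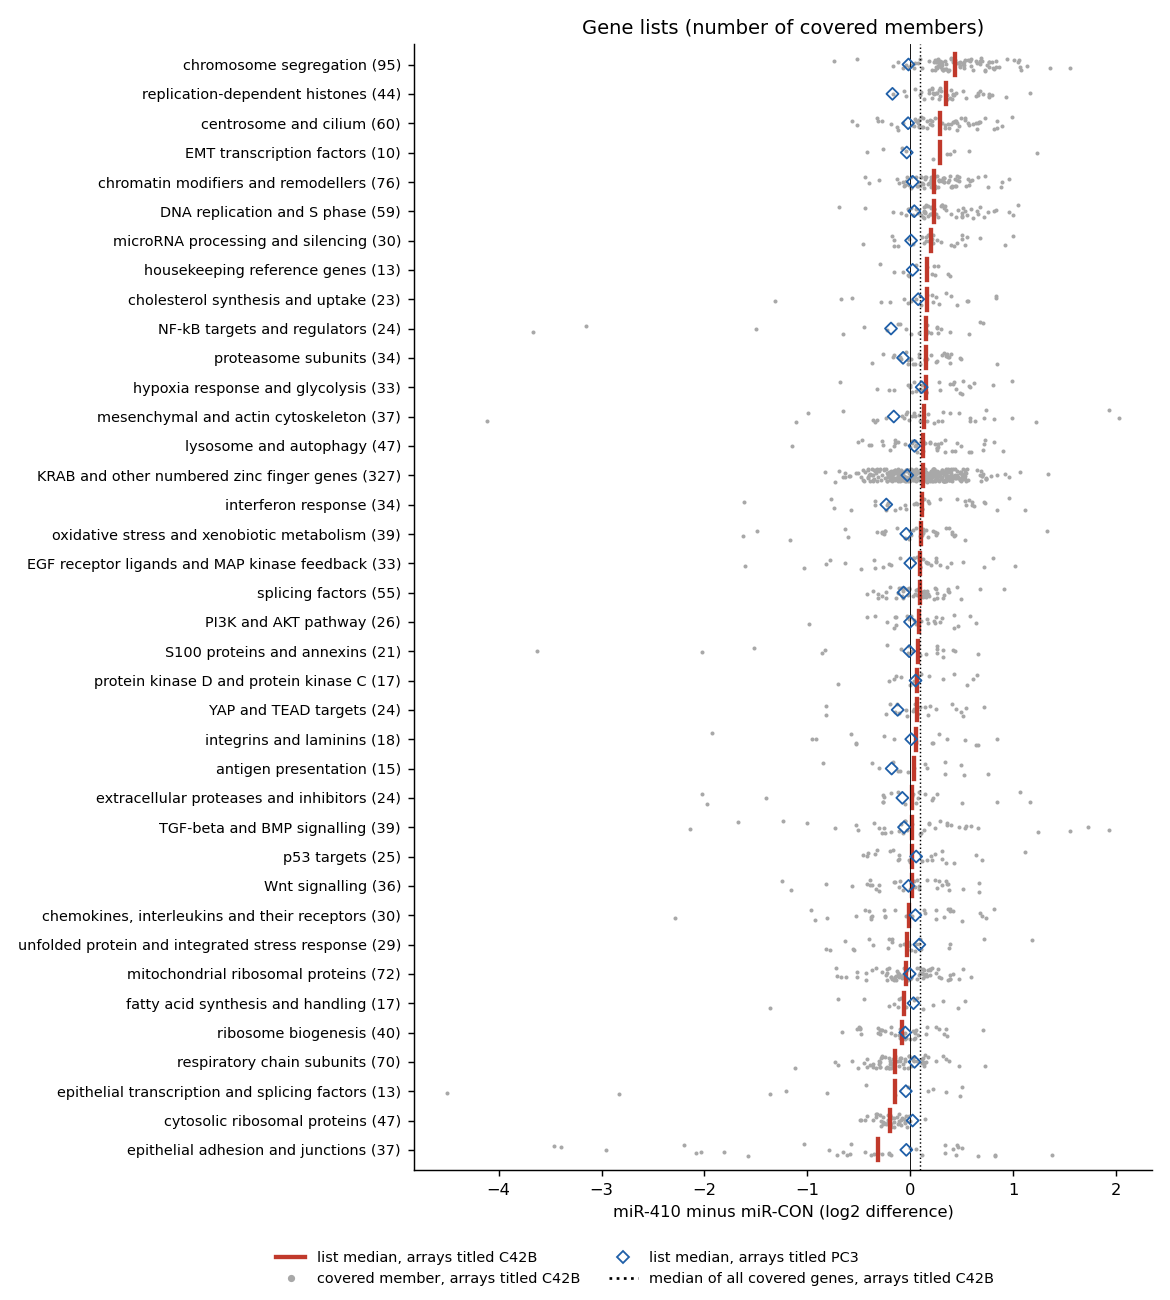
The 38 gene lists with at least 10 covered members, ordered by median; grey points are covered members on the arrays titled C42B (x axis, log2 difference, miR-410 minus miR-CON), red bars their medians and open diamonds the medians on the arrays titled PC3. Segregation genes are at the top with a median of 0.43 and epithelial junction genes at the bottom with -0.31.

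Signalling lists had members both above and below 0. In TGF-beta and BMP signalling, 4 of 39 covered genes were higher and 3 lower at 2-fold. Beside BMP2 and ID3, which were higher, the ligand BMP4 had 8.31 on the miR-410 array and 9.98 on the miR-CON array. The inhibitory gene SMAD6 had 7.11 and 9.25, and the pseudoreceptor BAMBI had 6.37 and 7.61. In the Wnt list, the transcription factor TCF7L2 had 6.30 and 7.55 and the ligand WNT7A 7.46 and 8.62, while WNT5A had 8.54 and 7.87. Among regulators of the MAP kinase pathway, the inhibitor SPRY1 had 8.73 with miR-410 and 10.34 with miR-CON, whereas its relative SPRY2 had 7.89 and 7.09. JUN was 2.02-fold higher and MYC 1.77-fold lower with miR-410.

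Immune, stress and metabolic lists held single large differences. Of 33 covered genes of hypoxia and glycolysis 28 were above 0 (median 0.15), and of 29 of the unfolded protein and integrated stress response 19 were below 0 (median -0.03). Of 24 covered NF-kB targets and regulators 15 were above 0 (median 0.15), though 0 were at least 2-fold higher. The 3 that were at least 2-fold lower were C3, LCN2 and TNFAIP2 (6.09 on the miR-410 array and 7.59 on the miR-CON array). The chemokine CCL20 had 7.47 and 9.75, and the neutrophil chemokine CXCL8 had 10.15 and 11.11. In the interferon list, SAMD9 (9.22 and 8.10) was higher and MX1, an antiviral GTPase (6.80 and 8.41), lower. The calcium-binding protein S100A2 had 7.76 and 9.78, and the laminin receptor subunit ITGB4 7.27 and 9.20. Their lists as a whole were not lower. Of 21 covered S100 proteins and annexins 12 were above 0 (median 0.08), as were 10 of 18 integrins and laminins (median 0.06). The stress gene DDIT4, an inhibitor of mTORC1, had 8.88 on the miR-410 array and 7.69 on the miR-CON array, and VEGFA, a hypoxia target, had 11.10 and 10.10. In metabolism, CPT1A, which carries fatty acids into mitochondria, had 6.94 and 8.31, TM7SF2, a sterol reductase, 7.21 and 8.53, and GCLM, which supports glutathione synthesis, 7.86 and 6.53. The aldehyde dehydrogenases ALDH3A1 (-1.63) and ALDH1A3 (-1.17) were lower with miR-410.

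The genes that the study names as miR-410 targets, most of them cited from earlier work, showed no common direction among the covered ones. Of 10 listed genes 9 were measured and 7 covered. KLF10 had 10.71 on the miR-410 array and 10.12 on the miR-CON array, BAK1 had 8.26 and 7.69, and CETN3 had 7.38 and 6.92. MET, the receptor of hepatocyte growth factor, had 10.74 on both, and BRD7 had 9.01 and 9.07. With GSK3B (0.16) and SNAI1 (-0.26), all 7 lay within 1.5-fold, as did 87.1% of all covered genes. PRKD1 was the only measured one with a larger difference, and its miR-CON value was dim. AGTR1 was dim on both arrays, at 2.70 with miR-410 and 2.64 with miR-CON. The study also used other assays for several further genes. On these arrays AKT1 differed by -0.15, AKT2 by -0.03, TGFB1 by -0.09 and GAPDH by -0.02. ENO2 had 6.62 on the miR-410 array and 6.34 on the miR-CON array. MMP10 (4.42 and 5.62), SYP (5.07 and 5.69), MYCN (3.97 and 4.15) and POU3F2 (3.21 and 3.50) were dim on both arrays. The folds of these dim genes have unknown accuracy. PI3K and AKT pathway genes had a median of 0.08 over 26 covered members, with 0 at least 2-fold different. Over all 34 measured members, dim ones included, the median was 0.045, with 3 at least 2-fold lower and 0 higher.

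Differences were shared by neighbouring genes in several stretches of chromosomes. In windows of 25 covered genes in chromosome order, medians ran from -0.64 to 0.75 on the arrays titled C42B and from -0.28 to 0.23 on the arrays titled PC3, and in windows of 51 genes from -0.59 to 0.48 and from -0.17 to 0.20. The windows overlap, and those named were picked for their medians. On chromosome 15, from DUT to RFX7, all 25 genes were above 0 (median 0.75) and 7 were at least 2-fold higher, among them FBN1, the protease SPPL2A (8.65 on the miR-410 array and 7.20 on the miR-CON array), SECISBP2L (9.06 and 7.81) and the myosin MYO5A (9.17 and 8.05). The same genes had a median of 0.02 in the pair titled PC3. Farther along that chromosome, from IDH2 to ALDH1A3, 18 of 25 genes were below 0 (median -0.47), including MAN2A2 (5.93 and 7.65), FURIN (6.67 and 7.71) and PRC1. The median of that stretch in the pair titled PC3 was 0.07.

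On chromosome 14 the sign changed between nearby stretches. From GPHN to ZFYVE1, 23 of 25 genes were above 0 (median 0.52), and from AREL1 to SLIRP 24 of 25 were below 0 (median -0.64), with 5 at least 2-fold lower. Among those below 0, SPTLC2, which starts sphingolipid synthesis, had 8.95 on the miR-410 array and 10.11 on the miR-CON array, the mitochondrial enzyme DLST had 8.17 and 9.29, and the translation factor EIF2B2 had 8.72 and 9.80. Both stretches had medians of -0.01 and 0.00 in the pair titled PC3. On chromosome 10, from MRPL43 to ARL3, 23 of 25 genes were below 0 (median -0.53) and 0 at least 2-fold lower. On chromosome 12, from SNRPF to GLT8D2, 24 of 25 were above 0 (median 0.56), among them the ETS factor ELK3 (9.26 and 8.47) and the apoptosome gene APAF1 (7.61 and 6.79). On chromosome 18, from CDH2 to EPG5, 21 of 25 were above 0 (median 0.57), a stretch that also holds DSC3, DSG2 and, among the genes below 0, SLC14A1. In the pair titled PC3 the chromosome 18 stretch had a median of -0.18, with 18 of 25 genes below 0, and those on chromosomes 10 and 12 had medians of 0.06 and -0.06. The miR-410 locus lies on chromosome 14, beyond the AREL1 to SLIRP stretch. Copy number was not measured.

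**Figure D4:**
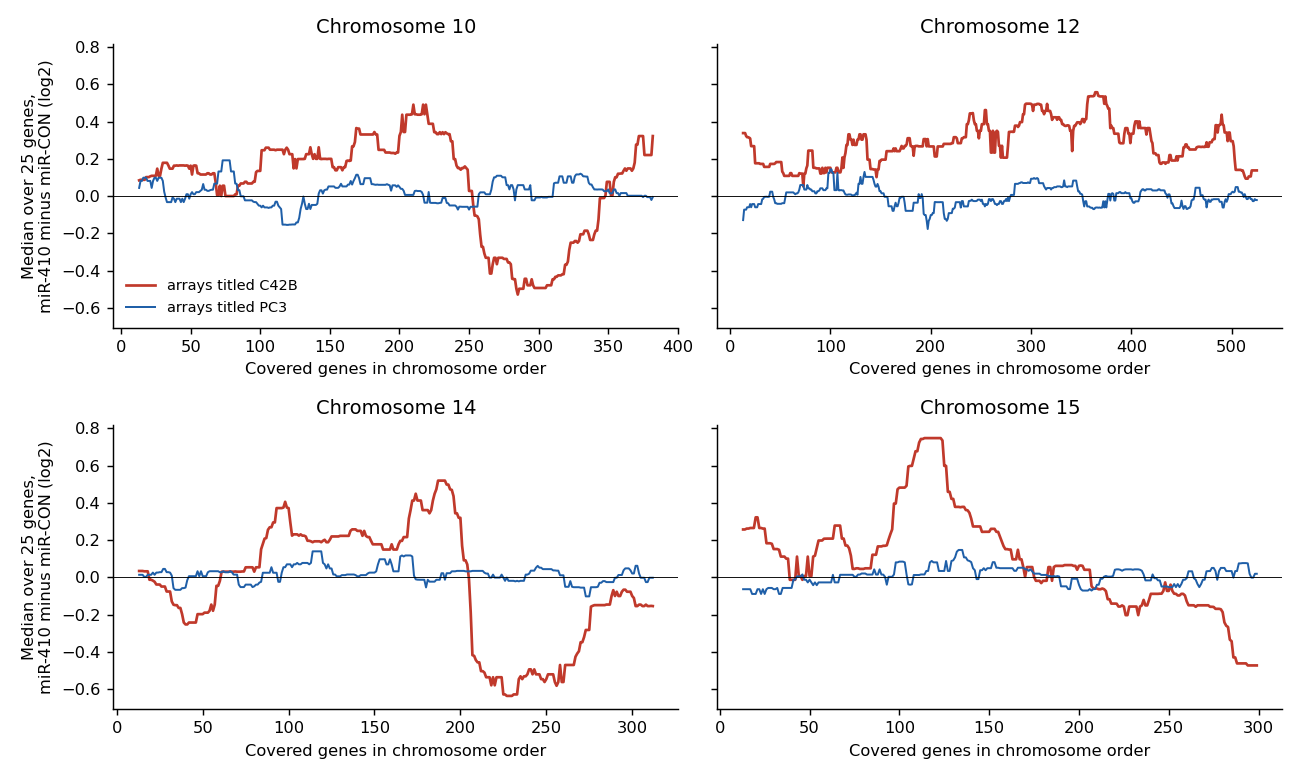
Median difference (y axis, log2, miR-410 minus miR-CON) over windows of 25 covered genes, in chromosome order along chromosomes 10, 12, 14 and 15 (x axis, gene count); red is the pair titled C42B and blue the pair titled PC3, both by title. The red line goes from above 0 to -0.64 on chromosome 14 and peaks at 0.75 on chromosome 15, while the blue line stays near 0.

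Whole chromosomes differed less. Chromosome 12 had the highest median, 0.28, with 413 of 537 covered genes above 0 (76.9%), followed by chromosomes 13 (0.22, over 168 covered genes), 7 (0.20) and 1 (0.20). Chromosomes 21 (-0.15), 11 (-0.09) and 19 (-0.08) had the lowest. In the pair titled PC3, chromosome medians ran from -0.05 on chromosome 19 to 0.07 on chromosome 13.

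The difference also went with the length of the gene. Covered genes were put in 10 groups of nearly equal size by their span in the RefSeq annotation. The median was -0.05 in the group of shortest genes, where 44.5% of genes were above 0, and 0.18 in the ninth, where 70% were, with 0.15 in the longest. Of 1017 genes each, 6 of the shortest and 26 of the longest were higher at 2-fold, whereas 16 and 14 were lower. The pair titled PC3 had medians of -0.05 to 0.03 over the same groups, in nearly the same order. Spearman's rho between span and difference over the 10163 genes was 0.18 in the pair titled C42B and 0.10 in the pair titled PC3, a description over genes that share the arrays. The difference went with signal level too. In 10 groups by mean value, the median was -0.07 in the dimmest, with 40.2% of genes above 0. It was 0.15 in the eighth, with 68.4% above 0, and 0.08 in the brightest. The span groups differed in median level, 7.43 in the shortest and 8.30 in the seventh, so span and level were not separated. Lists of short genes, such as ribosomal proteins, and of long genes differ in span. The parts of span and level in list medians were not tested.

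**Figure D5:**
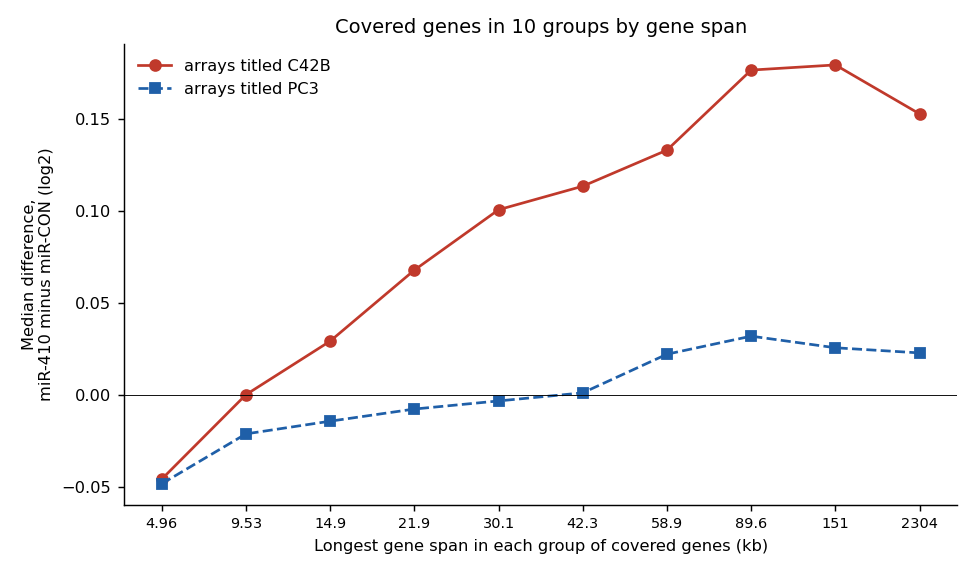
Median difference (y axis, log2, miR-410 minus miR-CON) of covered genes in 10 groups by gene span (x axis, longest span of each group in kb); red circles are the arrays titled C42B and blue squares the arrays titled PC3. The red points go from -0.05 to 0.18 and the blue points from -0.05 to 0.03.

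Few genes differed alike in both pairs by title. UGT8 and LRRCC1, a centrosomal protein, were at least 2-fold higher in both, LRRCC1 with 7.37 on the miR-410 array and 5.97 on the miR-CON array titled C42B, and 6.15 and 4.33 on those titled PC3, where the second value is below the limit of covered genes. THBS1, the matrix protein thrombospondin-1, was lower in both, with 7.91 and 9.63 on the arrays titled C42B miR-410 and C42B miR-CON, and 6.45 and 9.06 on those titled PC3 miR-410 and PC3 miR-CON. TMEM45B had 8.01 and 10.21, and 6.34 and 7.67, in the same order. The osteogenic factor RUNX2 was higher, at 10.41 and 9.06 in the pair titled C42B, and at 5.01 and 4.06 in the pair titled PC3 (log2 difference 0.95), both below the limit of covered genes. Under the other fields of the PC3 labels these genes would differ in opposite directions.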

How the data were processed

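RNA from stable cultures was labelled with a whole-transcript kit and hybridized to Clariom S arrays. The authors normalized the scanner files by RMA in Partek (both named in the submitters' processing notes) and deposited the log2 scale, with 1 value for every probe set of an array. Genome build and software settings are not given in the sources used here. Scanner files were not used, so background and batches were not examined, and precision is limited by the number of arrays.

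Of 21448 probe sets, 17709 had 1 symbol in the platform's table, 0 had several and 3739 were not listed. Probe sets of a gene were averaged (20 genes), and all 17687 symbols stand in RefSeq's GRCh38.p14 table, used for chromosome, neighbour order and span. Calls were 2-fold differences among covered genes, without p-values, since 0 residual degrees of freedom remain. Genes were named from fixed groups, and not every member of a group is given above. The groups held the 15 highest and 15 lowest covered genes. They held the 3 highest and 3 lowest covered members of each of 38 described lists (of 50, those with at least 10 covered members). The miR-410 targets the study names, genes of its other assays, and the markers were further groups. The last were the 5 highest and 5 lowest genes with 1 dim side, and genes at 2-fold in opposite directions in both pairs or among the 5 most alike. Other list members, microRNA entries and genes of chromosome windows were named after their values were seen. Members and lists were chosen with earlier results of these data known. Alternatives were other folds and filters, a loess trend (span 0.4) or the median subtracted, and other summaries of probe sets. Scripts were tested on simulated data. Python 3.11.15, NumPy 2.4.6, pandas 2.3.3, statsmodels 0.14.6 and Matplotlib 3.10.9 were used.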

Additional observations from a re-analysis of the deposited data

Results flagged for a closer look

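In 5 covered genes the 2 pairs differed at least 2-fold in opposite directions by title. ST8SIA4, a polysialyltransferase, differed by 1.46 (log2) in the pair titled C42B and by -1.77 in the pair titled PC3, SNAI2 by 1.23 and -1.56, the DNA sensor IFI16 by 1.16 and -1.20, SAMD9 by 1.12 and -1.81, and DUSP5, a phosphatase of ERK, by -1.03 and 1.18. On the arrays titled PC3 miR-410 and PC3 miR-CON, DUSP5 (5.68 and 4.50) and IFI16 (4.28 and 5.48) were below the limit of covered genes on both, and SAMD9 (4.47 and 6.28) on the miR-410 one, so their differences there have at least a dim side. These differences between the pairs were not tested, since each group has 1 array. They rest on the titles of the arrays titled PC3, and under the genotype and description fields of those arrays the 5 genes would differ in the same direction in both pairs.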

How the results depend on the processing

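The counts of covered genes at least 2-fold higher and lower (121 and 144) became 822 and 493 at 1.5-fold, 8 and 52 at 3-fold, and 238 and 399 without the filter on dim genes. In the other 14 recomputations they stayed within 1.5 times, at 87 to 157 and 109 to 216. List medians changed by over 0.1 as follows. Without the filter they were -0.44 for epithelial adhesion, -0.63 for epithelial transcription and splicing factors, 0.026 for EMT factors, -0.16 for chemokines, 0.0048 for NF-kB targets, -0.086 for Wnt, -0.021 for S100 proteins and annexins and -0.16 for integrins and laminins. With both values at or above the array median they were -0.21 for epithelial adhesion, -0.019 for epithelial factors and 0.15 for antigen presentation. With a loess trend subtracted they were -0.29 for epithelial factors, 0.19 for EMT factors, 0.31 for segregation, -0.16 for mitochondrial ribosomal proteins, 0.03 for the proteasome, 0.027 for cholesterol, -0.17 for fatty acids, 0.047 for NF-kB targets, -0.045 for PI3K and AKT, -0.061 for protein kinases D and C, 0.13 for chromatin, 0.17 for centrosome and cilium, 0.014 for lysosome, -0.0055 for oxidative stress and 0.094 for microRNA processing. The other 126 list medians changed by less. The 277 genes in the groups used for naming had 831 recomputed values. Of these genes, ADAM12 (0.94), CCNE2 (0.91), CLSPN (0.88), JUN (0.89) and SAMD9 (0.98) were no longer 2-fold higher with the loess trend subtracted. The same held for CLSPN (0.99) with the median of all genes subtracted. Under the loess, 5 others passed 2-fold (CXCL8, FBN2, LAMA4, SGK1 and TUT4), and 3 with differences near 0 changed sign (CDH2, H3C11 and H4C4). The causes were not tested. No paired analysis was possible because the arrays titled C42B are a single pair, and a fit over both pairs would need the construct of the arrays titled PC3, on which their labels conflict. Signal over background was not examined, so genes with a dim side have folds of unknown accuracy.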
